A study of Mus musculus with 12 samples.

Results

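The comparison described here set CD4 T cells of mice labelled RARα TG against CD4 T cells of mice labelled RARα KO, both cultured without retinoic acid (RA). Its members were chosen by label: 2 libraries labelled TG at 0 nM RA and 2 labelled KO at 0 nM RA, 4 of the 12 libraries of the series. The other 8 were wild type (WT) at 0 and 10 nM RA and the KO and TG labels at 10 nM RA. All mice were C57BL/6, an inbred strain. Naive CD4 T cells were kept for 24 h in medium with charcoal-stripped serum, a treatment that lowers its retinoid content, and were activated by antibodies to CD3 and CD28. Every culture held IL-6, IL-1β, IL-21, IL-23, TNFα and TGF-β1, with IFNγ and IL-4 blocked by antibody, a mixture that favours the Th17 state. Which allele the KO label stands for, which construct and promoter the TG label stands for, and how many animals gave each library is not stated in the sources used. Expression was tested for 11922 of the 52635 genes of the table, those with an FPKM (fragments counted per exon length and library depth) of at least 1 in at least 2 of the 12 libraries.

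RARα, the product of Rara, is a nuclear receptor that binds DNA as a partner of the RXR receptors. Without ligand it is known to recruit corepressors to its target genes. RA binding exchanges these for coactivators, and the targets are then transcribed. In CD4 T cells RA is known for supporting Foxp3 and gut-homing receptors and for limiting Th17 cytokines.

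Depth in the 4 libraries was 17303975 and 18526840 reads for the KO label and 19734846 and 25534588 reads for the TG label, as read from the steps of the values. Replicates correlated across genes at r = 0.987 in both groups, and genes are not independent replicates. By Xist and Y-linked transcripts both libraries labelled KO were female, whereas the TG label held a male library (replicate 1) and a female one (replicate 2). All WT libraries were male, so genotype and sex cannot be told apart between WT and the KO label. Between TG and the KO label genotype and sex overlap only in part. The number of genes called, and some but not all list counts below, are also given without TG replicate 1. All libraries compared are then female. The 12 T-cell markers summed to 2237 and 1900 FPKM in the KO label and 1976 and 1745 in TG. The 12 B-cell markers summed to 43.8 and 85.9 against 51.9 and 59.0, and the 10 dendritic and class II markers to 26.6 and 73.8 against 28.0 and 44.8. In the KO label, replicate 2 held more of both than replicate 1, and more of the macrophage and monocyte markers (4.86 and 17.9). In WT without RA the same gap was larger, with B-cell markers at 41.3 and 193 FPKM and dendritic and class II markers at 24.0 and 157. The part of such cells in the WT values was not tested. No member of the B-cell, dendritic, macrophage, neutrophil, CD8 or erythroid marker lists was called between the groups by limma. Among their 24 tested members 2 had an unadjusted p under 0.05, and voom called 1.

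Rara was examined first (ENSMUSG00000037992, chr11:98927818-98974942, GRCm38). It stood at 19.5 and 19.3 FPKM in the libraries labelled KO and at 72.8 and 63.3 in those labelled TG. WT without RA held 16.5 and 18.9 FPKM, so the libraries labelled KO were not below WT. The gene-level value counts all exons together and cannot show whether an exon is lost. The TG minus KO difference was 1.76 ± 0.09 (difference of mean log2(FPKM + 1) ± SE, n = 2 against 2, limma adjusted p = 2.2e-05). Because Rara RNA does not set the KO label apart from WT, that group is called by its label throughout.

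In all, 1909 genes, 16.0% of those tested, passed the test at an adjusted p under 0.05 and are said to have been called. Of these, 859 (7.21%) had risen, meaning higher in TG, and 1050 (8.81%) had fallen. Most differences were small: 1024 of the 1909 were under 0.5 on the log2 scale. In FPKM + 1, 113 genes (0.948%) rose and 132 (1.11%) fell by at least 2-fold. This cut leaves out some genes of low level whose FPKM differed by more than 2-fold. The median difference over all genes was -0.00. In every called gene the 2 groups did not overlap, which was also so for 57.8% of all genes tested. The number called was 1377 without TG replicate 1, 874 without TG replicate 2, 777 without KO replicate 1 and 1172 without KO replicate 2. With a term for sex it was 1528. Fitting the 4 libraries alone, which leaves fewer degrees of freedom, gave 737. List counts given below without 1 library are to be read beside the drop over all genes tested.

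**Figure D1:**
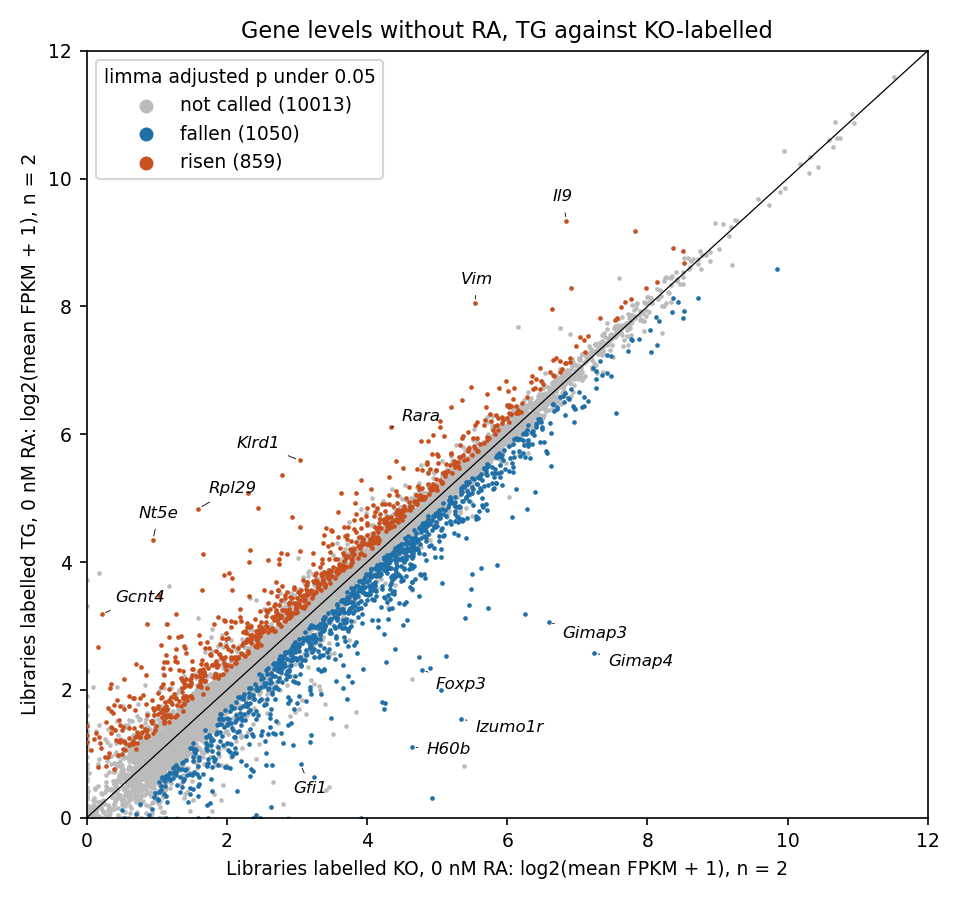
Level of each tested gene in the libraries labelled KO (x axis) and TG (y axis) without RA, as log2 of the mean FPKM of 2 libraries plus 1. Orange points are the 859 genes that rose and blue points the 1050 that fell, and Gimap4, Gimap3, Izumo1r, H60b and Foxp3 lie far below the diagonal.

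Among genes that RA is known to induce, more fell than rose in TG against the KO label when no RA was added. Of 18 tested members of this list, 7 fell (Xcl1, Gfi1, Tgm2, Itga4, Hic1, Asb2 and Nrip1) and 1 rose (Nt5e), and their median difference was -0.20 on the log2 scale. Over all genes tested 8.81% fell and 7.21% rose. Between 4 and 5 fell when each of the 4 libraries was left out in turn. The list was put together with the RA response of these WT cultures known, and 13 of the 18 were called risen there. Its falls are therefore not separate from the comparison with RA in WT below. RA receptors bind DNA at paired half-sites. Promoters are therefore printed, 250 bases before to 50 after the start, for the 4 called members with the largest differences among those in the RefSeq table (GRCm38.p6). Tgm2, which differed by more than Itga4, has no entry there. Capitals mark the half-site AGGTCA or one of its variants, which were GGGTCA for the first, the form AGTTCA in addition, and lastly the form GGTTCA, on either strand.
Nt5e promoter, chr9:88327359-88327658, plus strand: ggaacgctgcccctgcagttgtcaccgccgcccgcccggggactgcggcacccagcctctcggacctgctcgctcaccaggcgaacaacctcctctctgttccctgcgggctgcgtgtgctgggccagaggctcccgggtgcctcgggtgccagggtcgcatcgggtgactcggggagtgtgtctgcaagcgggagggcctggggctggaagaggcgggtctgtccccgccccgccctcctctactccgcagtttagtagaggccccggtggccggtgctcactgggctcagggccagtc
Xcl1 promoter, chr1:164935473-164935772, minus strand: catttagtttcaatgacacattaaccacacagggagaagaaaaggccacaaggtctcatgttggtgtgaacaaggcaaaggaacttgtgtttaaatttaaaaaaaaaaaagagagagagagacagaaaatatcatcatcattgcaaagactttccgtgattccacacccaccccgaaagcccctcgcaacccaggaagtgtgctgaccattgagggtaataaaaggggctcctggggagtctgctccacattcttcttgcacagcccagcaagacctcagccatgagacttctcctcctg
Gfi1 promoter, chr5:107725756-107726055, minus strand: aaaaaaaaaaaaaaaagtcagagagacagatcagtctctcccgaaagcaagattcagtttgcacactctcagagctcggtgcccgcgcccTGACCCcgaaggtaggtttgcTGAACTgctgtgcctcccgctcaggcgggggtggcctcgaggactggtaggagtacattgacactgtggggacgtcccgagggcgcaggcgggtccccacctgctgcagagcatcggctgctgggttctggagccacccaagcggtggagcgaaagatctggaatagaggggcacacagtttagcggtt
Itga4 promoter, chr2:79255176-79255475, plus strand: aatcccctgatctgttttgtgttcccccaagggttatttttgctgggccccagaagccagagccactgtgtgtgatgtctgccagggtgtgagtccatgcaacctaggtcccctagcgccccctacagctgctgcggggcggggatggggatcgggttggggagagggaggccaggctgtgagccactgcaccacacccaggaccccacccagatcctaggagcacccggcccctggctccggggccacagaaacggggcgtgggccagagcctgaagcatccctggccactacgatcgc
The Gfi1 window, the first of 2 in the table, held 2 half-sites, starting 160 and 139 bases before the start of transcription and both on the opposite strand. None of the 4 windows held 2 half-sites in the same direction with a spacer of 1, 2 or 5 bases. A half-site was found in 46.6% of the 794 fallen genes with a promoter in the table, in 40.3% of the 647 risen genes and in 41.6% of the 8311 tested genes. Over all genes of that table it was 46.9%. Paired half-sites were rare: with a spacer of 1 base, 3 fallen and 2 risen genes held them (0.378% and 0.309%, against 0.277% of tested genes). With a spacer of 2 or 5 bases no fallen or risen gene did. A gene counted if any of its promoters held the motif, and these shares were not tested.

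Gfi1, a transcriptional repressor of T-cell development, stood at 8.36 and 6.23 FPKM in the KO label and 1.08 and 0.492 in TG (-2.22 ± 0.19, adjusted p = 0.00027). Tgm2, a transglutaminase, stood at 12.4 and 13.04 against 3.23 and 3.46 (-1.66 ± 0.15, adjusted p = 0.00034). Itga4, an integrin chain used for homing to the gut, stood at 4.10 and 3.09 against 1.02 and 0.667 (-1.31 ± 0.15, adjusted p = 0.00077). In all of these both TG libraries lay below both WT libraries, and WT lay below the KO label. Xcl1, a chemokine for cross-presenting dendritic cells, showed the same order, with 20.6 and 15.4 FPKM in the KO label, 5.68 and 9.39 in WT and 2.91 and 1.57 in TG (-2.57 ± 0.33, adjusted p = 0.0016). Hic1, a repressor expressed in intestinal T cells, stood at 1.31 and 1.14 against 0.243 and 0.136 (-0.90 ± 0.25, adjusted p = 0.042). Nrip1, a nuclear receptor corepressor, stood at 4.26 and 4.23 against 2.87 and 2.41 (-0.53 ± 0.12, adjusted p = 0.022). Hic1 lost its call without any 1 of the 4 libraries, with -0.84 to -0.97, and Nrip1 lost it without either KO library or TG replicate 2, with -0.44 to -0.53. Other known targets were not called. Crabp2, which carries RA to the nucleus, differed by -0.29 ± 0.24 (adjusted p = 0.47), and Stra6, a retinol transporter, by 0.07 ± 0.35 (adjusted p = 0.92). Ccr9, a gut-homing chemokine receptor, was listed at 0 in both TG libraries and at 0.101 and 0.0579 FPKM in the KO label.

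Nt5e went the other way. It encodes CD73, which makes adenosine at the cell surface, and had the largest rise of all named genes. It stood at 0.605 and 1.24 FPKM in the KO label, 10.9 and 9.73 in WT and 21.9 and 16.7 in TG, a difference of 3.41 ± 0.18 (adjusted p = 2.2e-05). The libraries labelled KO stood far below both other genotypes.

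The WT response to RA offers a comparison whose means share no library with TG against KO. The spread of each gene was taken from all 12 libraries for both tests, so a gene of low spread is more easily called in both. RA changed 1209 genes in WT (10.1% of those tested, 6.67% risen and 3.47% fallen). Without replicate 1 or 2 of WT at 0 nM the number was 554 or 342, and without replicate 1 of WT at 10 nM 477. Of the 1909 genes called between TG and KO without RA, 607 (31.8%) were also called with RA in WT, which is 50.2% of the RA calls. Among these 607, 570 (93.9%) had opposite signs: 398 were lower in TG and rose with RA, and 172 were higher in TG and fell with RA. Only 37 had the same sign, 30 of them risen in both. Over all genes that rose in TG, called with RA or not, 640 of 859 had an RA difference below 0 in WT (median -0.13). Over all that fell, 908 of 1050 had one above 0 (median 0.25). The median over all genes tested was 0.02. The number called in both ranged from 239, without WT replicate 2 at 0 nM, to 495 when 1 library was left out, and was 342 without WT replicate 1 at 0 nM, 294 without WT replicate 1 at 10 nM, 353 without KO replicate 1 and 371 without TG replicate 2. With only the libraries compared RA called 142 genes in WT and 72 were called in both, and with the replicate block 925 were called in both. The share with opposite signs was 92.8 to 98.6% under the alternatives.

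**Figure D2:**
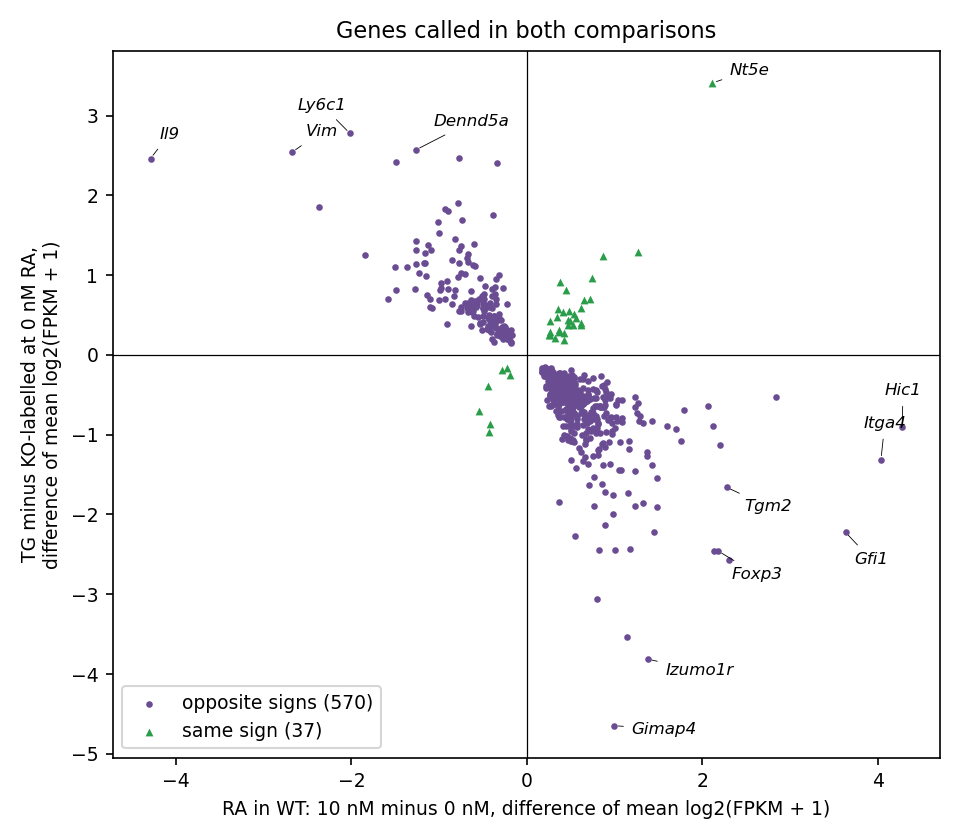
The 607 genes called in both comparisons, with the effect of 10 nM RA in WT on the x axis and TG minus KO without RA on the y axis, both as differences of mean log2(FPKM + 1). Most points lie in the upper left and lower right, 570 with opposite signs against 37 with the same sign, Nt5e being far out among the latter.

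Among the receptors and enzymes of the retinoid pathway 2 of 13 tested members were called, Rara and Rxra (median 0.09). This is near the share called over all genes tested, 16.0%. Rxra, the shared partner of RARα, stood at 4.34 and 5.23 FPKM in the KO label, 6.84 and 7.48 in WT and 9.36 and 12.3 in TG (1.03 ± 0.13, adjusted p = 0.0013). Rarg, another RA receptor, differed by 0.18 ± 0.15 (adjusted p = 0.47). Of 20 nuclear receptor corepressors and coactivators, 6 fell and none rose, all by little: Nrip1, Kat2b, Tbl1x, Tbl1xr1, Trim24 and Med1 (median of the list -0.09). Kat2b, an acetyltransferase, fell most after Nrip1, from 11.4 and 10.8 to 8.53 and 7.86 FPKM (-0.40 ± 0.07, adjusted p = 0.0074). This count rested on single libraries: it was lower without either KO library or without TG replicate 2. Calls over all genes tested were also fewer in such fits, which leave 1 library in a group.

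Several of the largest falls lay in one gene cluster. All 8 Gimap genes, which encode GTPases that support lymphocyte survival, lie within chr6:48647234-48770851, a stretch of 124 kb, and all 8 fell (median -2.44). All 8 remained called without any 1 of the 4 libraries, with the sex term and with the 4 libraries alone. Gimap4 stood at 173 and 127 FPKM in the KO label and 5.08 and 4.84 in TG (-4.65 ± 0.26, adjusted p = 2.5e-05). Gimap3 stood at 108 and 82.4 against 8.53 and 6.12 (-3.53 ± 0.18, adjusted p = 2.2e-05), and Gimap9 at 82.4 and 67.9 against 8.83 and 7.35 (-3.07 ± 0.12, adjusted p = 6.1e-06). Gimap5 stood at 7.95 and 8.20 against 1.28 in both TG libraries (-1.99 ± 0.06, adjusted p = 3.4e-06). For each of the 8, both WT libraries lay between those of the other genotypes. In WT, RA raised all 8.

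Genes of regulatory T cells split, where 8.81% of all genes tested fell and 7.21% rose. Of 19 tested, 5 fell (Izumo1r, Foxp3, Gpr83, Lrrc32 and Tnfrsf9) and 4 rose (Nt5e, Lag3, Entpd1 and Il2ra), with a median of -0.12. Foxp3, the defining transcription factor of these cells, stood at 22.6 and 30.6 FPKM in the KO label, 9.95 and 12.3 in WT and 3.66 and 4.29 in TG (-2.46 ± 0.25, adjusted p = 0.0005). Izumo1r, the folate receptor 4 of regulatory and anergic T cells, stood at 39.4 and 39.9, 23.6 and 23.3, and 2.27 and 1.55 in the same order (-3.81 ± 0.15, adjusted p = 6.1e-06). Both were stepwise lower from the KO label through WT to TG, with no overlap. Entpd1, which encodes CD39 and acts upstream of CD73, went up from 2.69 and 3.06 to 7.38 and 7.76 FPKM (1.15 ± 0.11, adjusted p = 0.00035). With each of the 4 libraries left out in turn, 4 members rose. The falls were then 4 without KO replicate 2 and 3 without KO replicate 1 or either TG library. In bulk RNA, fewer cells of a type and less RNA per cell cannot be told apart.

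Th17 genes were also mixed, beside 7.21% risen and 8.81% fallen over all genes tested. Of 25 tested, 9 rose (Il22, Il23r, Nfkbiz, Il1r1, Fosl2, Il21, Il6st, Batf and Irf4) and 3 fell (Ccl20, Runx1 and Cd5l), with a median of -0.01. Il21, a helper-cell cytokine, stood at 39.5 and 41.1 FPKM in the KO label and 58.7 and 65.6 in TG (0.61 ± 0.06, adjusted p = 0.00064). Nfkbiz, a coactivator of Th17 cytokine genes, stood at 10.1 and 10.4 against 20.7 and 22.6 (1.01 ± 0.08, adjusted p = 0.00014). Fosl2, an AP-1 factor, stood at 16.1 in both KO libraries against 26.3 and 24.3 (0.62 ± 0.07, adjusted p = 0.00066). Il22 differed strongly between replicates, with 2.5 and 5.59 against 11 and 23.3 (1.83 ± 0.50, adjusted p = 0.042), and its call was lost with the sex term and without either KO library or TG replicate 2. Runx1, a transcription factor of T-cell differentiation, stood at 13.2 and 13.5 against 5.96 and 5.57 (-1.09 ± 0.10, adjusted p = 0.00032). Il17a and Il17f, the cytokines that name the lineage, did not pass the test. Il17a stood at 7.65 and 9.63 against 6.14 and 6.59 FPKM (-0.38 ± 0.20, adjusted p = 0.24), and was called with the replicate number as a block (adjusted p = 0.025). Il17f stood at 269 and 370 against 307 and 389 (0.13 ± 0.22, adjusted p = 0.74), and its sign turned without KO replicate 1 (-0.10) or TG replicate 2 (-0.04). With each of the 4 libraries left out in turn, 5 to 6 members rose and 1 to 2 fell. Of the 6 γδ T-cell markers, whose cells can also make IL-17, Trdc and Tcrg-C2 fell, and the list summed to 11.1 and 11.5 FPKM in the KO label and 4.63 and 5.09 in TG. The part of such cells in these values was not tested.

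Of 11 Th2- and Th9-type genes, 5 rose (Il9, Il24, Crem, Nfil3 and Irf4) and Gata3 fell (median 0.16). Over all genes tested 7.21% rose and 8.81% fell. Il9, the cytokine of Th9 cells, reached the highest level of the named rises: 88.6 and 139 FPKM in the KO label, 201 and 322 in WT and 447 and 849 in TG (2.46 ± 0.44, adjusted p = 0.0075). Its call was lost without KO replicate 1 (2.14) and without TG replicate 2 (2.00). Crem, a cAMP-responsive modulator, stood at 5.20 and 4.79 against 15.1 and 15.7 (1.45 ± 0.10, adjusted p = 6.5e-05), and Nfil3, a basic leucine zipper factor, at 10.9 and 11 against 23.2 and 29.7 (1.19 ± 0.10, adjusted p = 0.00025). Gata3 was low everywhere, 1.13 and 1.19 against 0.420 and 0.394 (-0.62 ± 0.13, adjusted p = 0.015), and lost its call without any 1 of the 4 libraries. Il10 stood at 2.69 and 5.19 against 5.61 and 7.71 and was not called (0.67 ± 0.24, adjusted p = 0.093). It was called without KO replicate 2 (1.04, adjusted p = 0.020) and with the replicate block (0.67, adjusted p = 0.029), while without KO replicate 1 the difference was 0.29. The count of 5 fell to 2 without KO replicate 1 and to 3 without TG replicate 2.

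Of 17 Th1 and cytotoxic genes 6 fell (Xcl1, Nkg7, Stat4, Tbx21, Ccl4 and Cxcr3) and 2 rose (Il12rb2 and Runx3), with a median of -0.74. The shares over all genes tested were 8.81% fallen and 7.21% risen. Stat4, which relays IL-12 signals, stood at 3.67 and 2.94 FPKM against 1.09 and 0.951 (-1.09 ± 0.16, adjusted p = 0.0029). Tbx21, the T-bet gene, stood at 3.67 and 4.60 against 1.47 and 1.5 (-1.04 ± 0.29, adjusted p = 0.042), a call lost with the sex term and without any 1 of the 4 libraries. Il12rb2, the signalling chain of the IL-12 receptor, moved opposite to Stat4, with 1.16 and 1.68 against 9.35 and 6.87 (1.91 ± 0.17, adjusted p = 0.00027). Runx3, a factor of cytotoxic and Th1 cells, stood at 11.8 and 14.3 against 23.9 and 24.7 (0.85 ± 0.10, adjusted p = 0.00083). Without each of the 4 libraries in turn, 2 to 3 members fell and 2 rose. Klrd1, an NK-receptor chain also made by activated T cells, stood at 4.83 and 9.61 against 44.4 and 50.02 (2.61 ± 0.34, adjusted p = 0.0016). It and Klre1 were the 2 NK-cell markers called. The 9 markers summed to 8.32 and 13.3 FPKM in the KO label and 46.3 and 52.9 in TG, mostly Klrd1 itself. The NK genes Klrb1c and Ncr1 stayed near 0: Klrb1c was listed at 0 in all 4 libraries, and Ncr1 at 0.113 and 0.0702 against 0 and 0.0763. Gzma, not called, was lower in TG, with 2.41 and 2.63 against 0.151 and 0.428. Klra4, not called, was also lower, with 0.279 and 0.217 against 0.0407 and 0. Klra7 was higher, with 0.183 and 0.213 against 0.240 and 0.402. Klra8 (0.147 and 0.0458 against 0 and 0.0997) and Eomes (0.0278 and 0.0260 against 0.0122 and 0) were near 0. The part of NK cells in these values was not tested.

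Many genes of naive and recirculating T cells fell in TG, beside 8.81% fallen and 7.21% risen over all genes tested. Of 19 tested naive and memory-type genes, 12 fell and 4 rose (Il7r, Satb1, Myb and Id2), with a median of -0.48. Klf2, which drives genes for lymph node homing and exit, stood at 29.7 and 28.0 FPKM in the KO label, 17.4 and 9.75 in WT and 5.73 and 2.46 in TG (-2.63 ± 0.46, adjusted p = 0.0065). Its call was lost without TG replicate 2 (-2.15). Lef1, a Wnt-pathway factor of naive cells, stood at 30.3 and 26.8 against 18.6 and 17.7 (-0.63 ± 0.12, adjusted p = 0.01), and lost its call without KO replicate 1 (-0.54) or TG replicate 2 (-0.59). Satb1, a chromatin organiser, stood at 27.7 and 28.9 against 59.0 and 58.1 (1.02 ± 0.11, adjusted p = 0.00074). The fallen and risen counts leaned on single libraries and were lower without any 1 of the 4. Such fits leave 1 library in a group, and calls over all genes tested were fewer in them too. Of 25 homing receptors and integrins, 10 fell, among them S1pr1, Itga4 and Itgb2, and 3 rose, among them Cxcr4 and Cxcr6, with a median of -0.43. Itgb2, the β2 integrin chain of LFA-1, stood at 197 and 175 against 85.2 and 74.2 (-1.21 ± 0.12, adjusted p = 0.00053). Ccr8, a skin-homing chemokine receptor, stood at 94.9 and 92.3 against 48.1 and 54.2 (-0.86 ± 0.10, adjusted p = 0.0011). The 10 falls became 5 without KO replicate 1 and 4 without TG replicate 2.

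Receptors for costimulation and inhibition were called in both directions, 5 of 22 risen (Havcr1, Icos, Lag3, Tnfrsf8 and Cd226) and 8 fallen (median -0.22). All genes tested gave 7.21% risen and 8.81% fallen. Icos, a CD28-family costimulator, stood at 39.8 and 47.9 FPKM in the KO label, 57.9 and 57.5 in WT and 99.4 and 111 in TG (1.25 ± 0.14, adjusted p = 0.0008). Both ligands of PD-1 fell: Cd274 stood at 11.4 and 11.04 against 5.51 and 4.12 (-1.08 ± 0.11, adjusted p = 0.00048), and Pdcd1lg2 at 12.6 and 11.8 against 5.79 and 5.07 (-1.04 ± 0.10, adjusted p = 0.00048). Cd96, an inhibitory receptor, stood at 17.1 and 16.8 against 8.47 and 6.56 (-1.08 ± 0.11, adjusted p = 0.00048). The 8 falls became 5 without KO replicate 1 and 6 to 7 without each of the other libraries.

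Components of T-cell receptor signalling fell by small amounts in number, beside 8.81% fallen over all genes tested. Of 38 tested, 19 fell and only Cd247, the ζ chain, rose (median -0.27). Without KO replicate 1 the falls were 10, and without each of the other 3 libraries 13 to 16. Fyn, a proximal kinase, stood at 50.03 and 47.5 FPKM against 31.7 and 30.3 (-0.64 ± 0.07, adjusted p = 0.00053). Lcp2, the adaptor SLP-76, stood at 78.0 and 73.1 against 49.7 and 48.5 (-0.61 ± 0.08, adjusted p = 0.0016), and Ubash3b, a phosphatase that dampens the receptor, at 24.7 and 20.3 against 10.1 and 8.68 (-1.17 ± 0.10, adjusted p = 0.00022). Both activating and dampening components are therefore among the falls. Of 12 T-cell markers, 5 fell (Trac, Cd3d, Cd3e, Cd4 and Lck) and 2 rose (Cd247 and Thy1).

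Among MHC class I genes and their peptide-processing partners every call was a fall, where 8.81% of all genes tested fell. Of 18 tested, 10 fell, none rose and 8 were not called (median -0.54), and 9 to 12 fell when each of the 4 libraries was left out. Psmb8, an immunoproteasome subunit, stood at 37.4 and 39.1 FPKM against 20.2 and 20.98 (-0.86 ± 0.09, adjusted p = 0.00048). Tap1 and Tap2 form the peptide transporter. Tap1 stood at 36.5 and 34.9 against 23.9 and 22.7 (-0.59 ± 0.05, adjusted p = 0.00014), and Tap2 at 31.5 and 28.4 against 18.6 and 16.7 (-0.73 ± 0.08, adjusted p = 0.00074). The class I gene H2-Q4, whose reads may be shared with its close paralogs, stood at 38.8 and 34.5 against 22.4 and 19.7 (-0.77 ± 0.07, adjusted p = 0.00035).

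The TGF-β list had 8 of 21 members fallen and 1 risen (median -0.17), against 8.81% and 7.21% of all genes tested. Pmepa1, a feedback target of the pathway, stood at 60.6 and 57.1 FPKM against 38.4 and 39.7 (-0.58 ± 0.05, adjusted p = 0.00035). Smad3, its signal carrier, stood at 33.7 and 29.8 against 21.1 and 19.6 (-0.62 ± 0.08, adjusted p = 0.0017), and the inhibitor Smad7 at 12.9 and 11.9 against 8.72 and 8.10 (-0.51 ± 0.06, adjusted p = 0.00075). The member that rose was Tgif1, a corepressor of the SMADs, with 13.9 and 12.7 against 19.1 and 18.6 (0.48 ± 0.06, adjusted p = 0.0012). The 8 falls became 4 without KO replicate 1 or without TG replicate 2.

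On the side of higher genes, 11 of 18 vimentin, galectin, annexin and S100 genes rose and none fell (median 0.48). Over all genes tested 7.21% rose. Vim, the intermediate filament vimentin, stood at 33.6 and 57.3 FPKM in the KO label, 68.9 and 99.0 in WT and 224 and 303 in TG (2.54 ± 0.31, adjusted p = 0.0011). Lgals1, galectin-1, stood at 120 and 118 against 278 and 342 (1.37 ± 0.16, adjusted p = 0.00094). Lmna, nuclear lamin A/C, stood at 0.841 and 1.24 against 7.61 and 12.7 (2.42 ± 0.22, adjusted p = 0.00033), and Ahnak, a large scaffold protein, at 2.77 and 3.61 against 15.05 and 9.98 (1.67 ± 0.18, adjusted p = 0.00075). All were ordered KO, WT, TG with no overlap. Without TG replicate 2 the rises were 6, without KO replicate 1 they were 7, and without the other libraries 8 to 9. Of 22 stress genes, from the unfolded protein response and the integrated stress response, 10 rose and none fell (median 0.24), with 6 called without KO replicate 1 or TG replicate 2. Targets of ATF4 had the largest differences. Trib3, a pseudokinase, stood at 3.29 and 3.10 against 8.66 and 13.05 (1.47 ± 0.15, adjusted p = 0.00048). Chac1, which degrades glutathione, stood at 0.918 and 1.25 against 3.78 and 7.27 (1.60 ± 0.24, adjusted p = 0.0035). Pdia6, an ER disulfide isomerase, rose by less, from 106 and 93.9 to 141 and 143 (0.50 ± 0.07, adjusted p = 0.0025). Sdf2l1, an ER chaperone cofactor, went from 50.2 in both KO libraries to 74.2 and 73.4 (0.55 ± 0.05, adjusted p = 0.00039).

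Growth programmes showed few calls, where 7.21% of all genes tested rose and 8.81% fell. None of 22 ribosome biogenesis, 24 DNA replication and 20 mitosis genes was called, with medians of 0.09, 0.06 and 0.35, by limma or by voom. At an unadjusted p under 0.05 there were 6, 1 and 0 of them. All 20 mitosis genes had a difference above 0. Of 25 sterol and fatty acid synthesis genes 6 rose, but 0 did without KO replicate 1, 2 without either TG library and 3 without KO replicate 2. Of 25 glycolysis and hypoxia genes 4 rose, but 1 did without replicate 2 of either group, and 1 of 27 ribosomal protein and 1 of 24 oxidative phosphorylation genes was called. Of 23 interferon-stimulated genes 5 rose and 4 fell, and of 28 immediate-early, AP-1 and NFAT factors 4 rose and 10 fell. Without KO replicate 1 these became 3 and 3 and, for the factors, 4 and 5, while 2 factors rose without each of the other libraries.

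**Figure D3:**
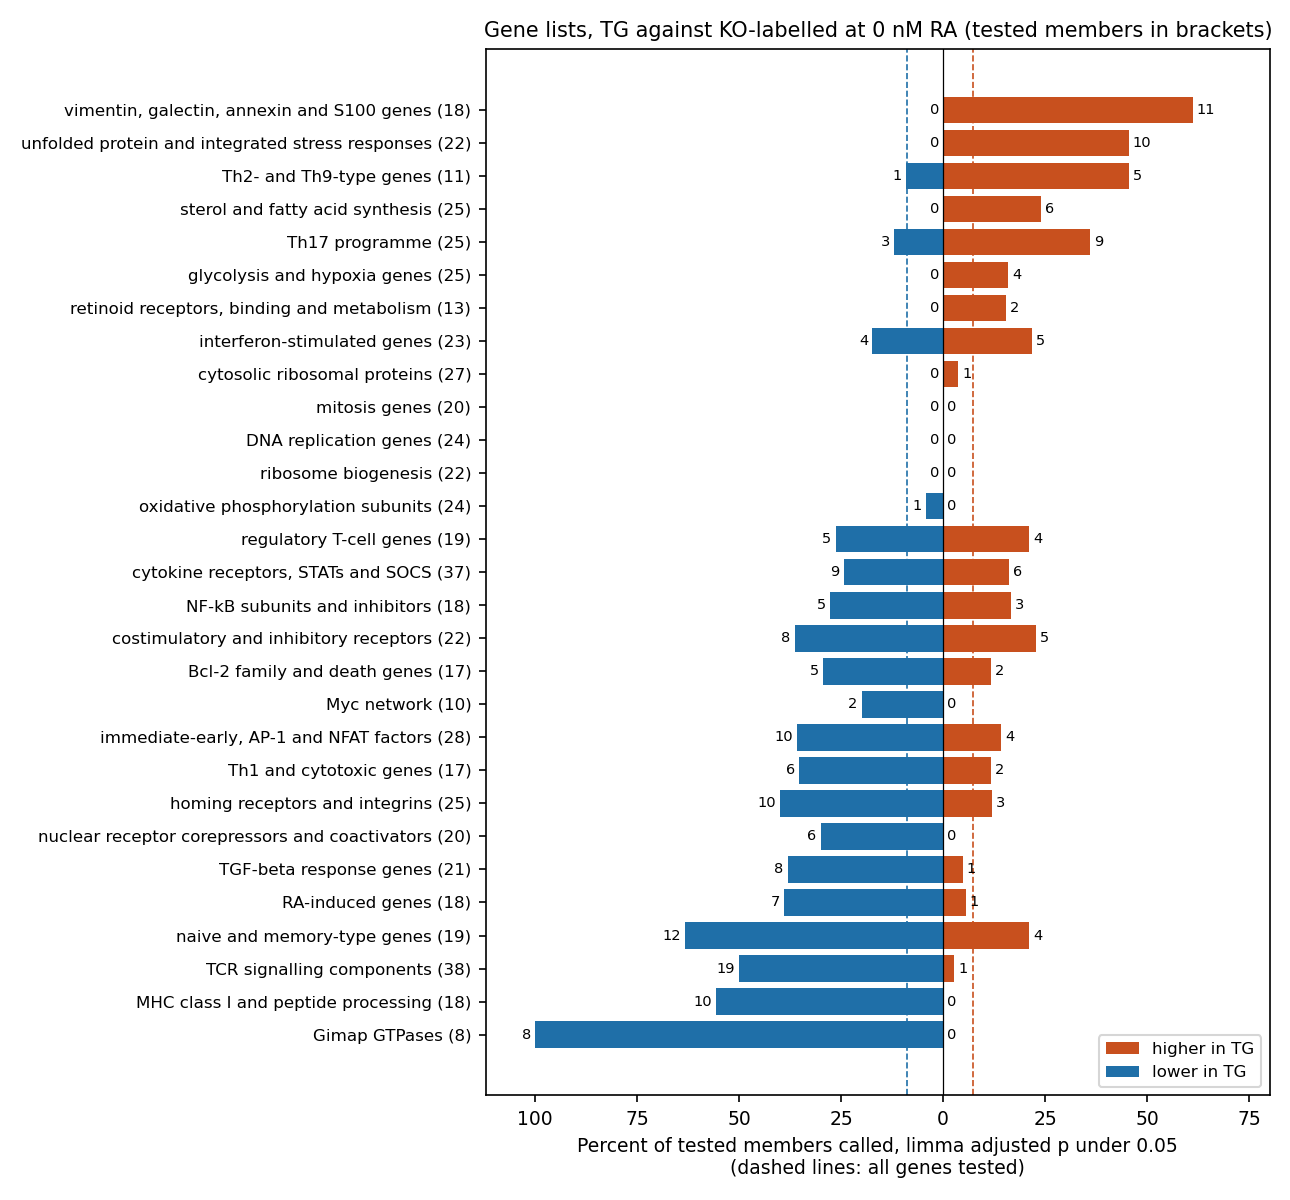
Share of the tested members of each gene list that rose (orange, to the right) or fell (blue, to the left) in TG against the KO label without RA, with the number beside each bar. Dashed lines mark 7.21% risen and 8.81% fallen over all genes, and the Gimap list, with 8 of 8 fallen, and the vimentin list, with 11 of 18 risen, reach furthest.

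The 24 genes with the largest differences, 12 in each direction, were chosen among called genes with a mean of at least 2 FPKM in a group. Beside those already named, the rises held Gcnt4, Ly6c1, Dennd5a, Nedd4, Fam46a, Rpl29 and mt-Ti. Gcnt4, a glycosyltransferase, stood at 0.170 and 0.149 FPKM in the KO label, 0.340 and 0.266 in WT and 7.32 and 8.85 in TG (2.97 ± 0.12, adjusted p = 6.1e-06). Here WT stayed with the KO label and TG stood apart. Ly6c1, a surface marker of some memory T cells, stood at 3.45 and 4.41 against 37.0 and 28.7 (2.78 ± 0.23, adjusted p = 0.00019), Dennd5a, a Rab exchange factor, at 5.53 and 6.26 against 36.1 and 44.0 (2.57 ± 0.13, adjusted p = 2e-05) and Nedd4, a ubiquitin ligase, at 1.83 and 2.48 against 15.4 and 17.5 (2.47 ± 0.16, adjusted p = 6e-05). Fam46a stood at 4.68 and 4.23 against 28.4 and 27.2 (2.40 ± 0.08, adjusted p = 3.4e-06). The mitochondrial tRNA mt-Ti stood at 0.838 and 0.782 against 11.02 and 3.41 (2.01 ± 0.58, adjusted p = 0.049). This call was lost with the sex term (1.70), without either KO library and without TG replicate 1 (1.28). Among the falls, Fbxo2, an F-box protein, stood at 17.7 and 17.6 against 3.34 and 1.64 (-2.46 ± 0.27, adjusted p = 0.00075), and Tbc1d4, a Rab GTPase-activating protein of glucose transport, at 22.1 and 14.1 against 2.97 and 1.98 (-2.44 ± 0.27, adjusted p = 0.0007). Akr1c18, a steroid-metabolising reductase, stood at 25.3 and 42.6 against 6.00 and 3.50 (-2.59 ± 0.35, adjusted p = 0.0021).

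WT, which the contrast does not use, mostly lay between the groups. Its mean without RA was between the means of the KO label and TG in 1716 of the 1909 called genes (89.9%), against 51.0% of all genes tested. Both WT libraries lay between the groups in 1219 (63.9%), against 14.8% of all genes. Among the 24 largest differences both did so in 20. A count of both libraries between needs groups that do not overlap, as in every called gene but only 57.8% of all genes tested. Called genes were also chosen for a gap between the KO label and TG. Part of the excess over all genes is therefore built in. WT was nearer to the KO label in 1167 of the 1909 and nearer to TG in 742.

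The same genotypes at 10 nM RA showed how far the differences depended on RA. At that dose 2200 genes (18.5%) were called between TG and KO. Of the 1909 called without RA, 305 were called with the opposite sign at 10 nM, 420 with the same sign and 1184 were not called. The change of the difference between the doses was itself called for 1849 genes (15.5%). This number was 1153 without KO replicate 1 and 1165 without TG replicate 2 at 0 nM, and 1179 and 1168 without TG replicates 1 and 2 at 10 nM. Among the 859 rises the difference became lower with RA in 383 and higher in 23, and among the 1050 falls it became higher in 497 and lower in 15. The 0 nM libraries enter both the choice of these genes and the change, so part of this tilt is built in. Icos turned from higher to lower in TG, with 25.9 and 22.9 FPKM in the KO label and 7.03 and 5.39 in TG at 10 nM, a change of -3.07 (adjusted p = 4.9e-05). Vim turned likewise, to 12.02 and 15.9 against 3.45 and 3.82, a change of -4.22 (adjusted p = 0.00045), and Il9 to 28.3 and 25.5 against 4.33 and 10.1 (-4.32, adjusted p = 0.0026). Foxp3 turned the other way, to 30.4 and 55.3 against 89.4 and 97.2 (3.62, adjusted p = 0.00035). Izumo1r reached 47.4 and 65.4 against 127 in both TG libraries (4.99, adjusted p = 7.5e-06). Gfi1 reached 23.9 and 29.7 against 69.4 and 71.6 (3.59, adjusted p = 8.8e-05). So TG libraries held the lowest Foxp3, Izumo1r and Gfi1 of the 3 genotypes without RA and the highest with it. Of the 24 largest differences, 4 were called with the opposite sign at 10 nM, 8 with the same sign and 12 were not called. Of the 8 Gimap genes, 7 had a called change, Gimap7 being the exception, and at 10 nM their median difference was 0.05. At that dose 2 of the 8 were still called lower in TG and 1 was called higher. Gimap4 differed by -1.55 and Gimap7 by -1.72.

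**Figure D4:**
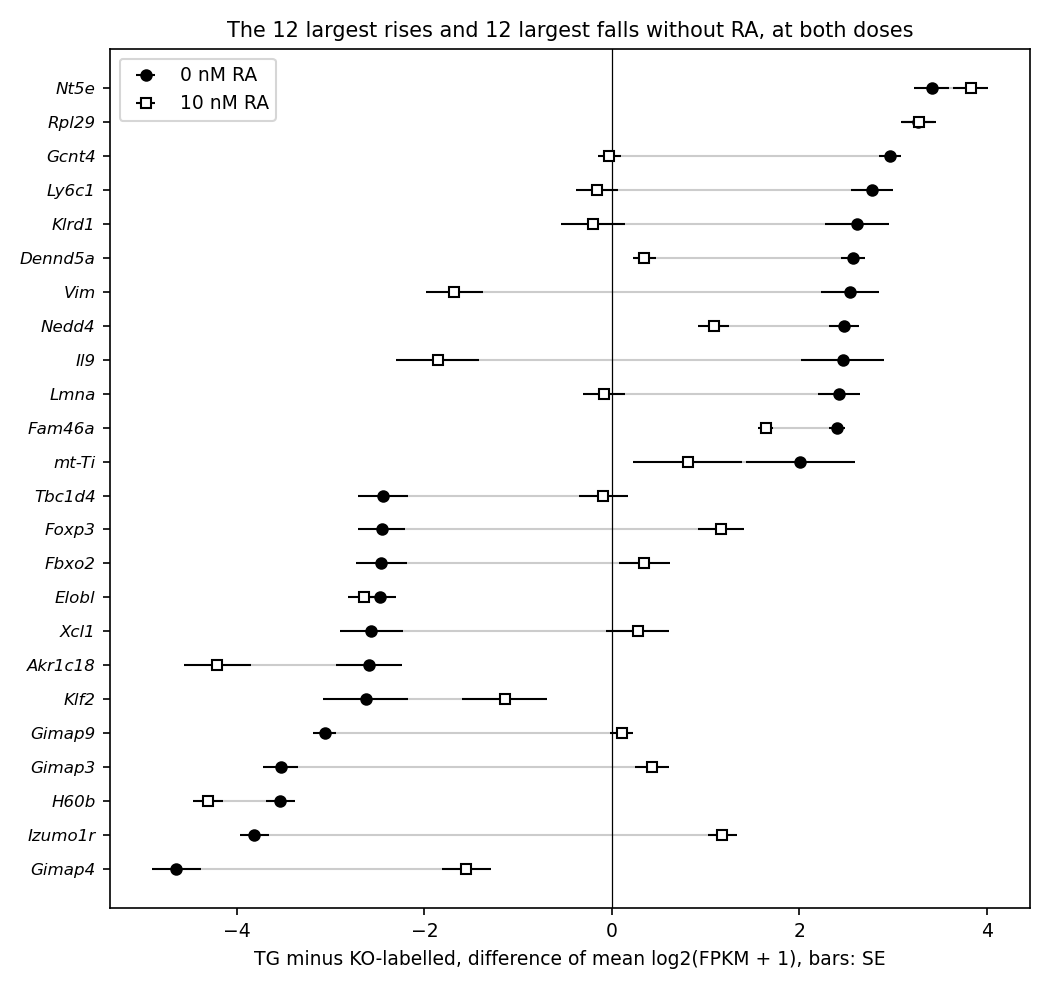
TG minus KO difference of mean log2(FPKM + 1) for the 12 largest rises and 12 largest falls without RA (filled circles) and the same difference at 10 nM RA (open squares), with bars of 1 SE. Vim and Il9 cross from above 0 to below it and Foxp3 and Izumo1r from below to above. Among the genes that stay on their side are Nt5e, Rpl29, H60b, Elobl, Akr1c18, Gimap4, Nedd4 and Fam46a.

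Some differences were called in the same direction at both doses. In 39 genes the difference was at least 2-fold in FPKM + 1 and called in the same direction at both doses. These genes had no called change between the doses and a mean of at least 2 FPKM in a group. Of these, 14 rose and 25 fell, and in 25 of the 39 WT was nearer to TG than to the KO label. A change that was not called may still be present: the difference of Akr1c18 went from -2.59 to -4.21 (change -1.62, adjusted p = 0.064). Some of the 39 also responded to RA in WT, among them Nt5e (2.12, adjusted p = 0.00066), Gimap7 (1.18, adjusted p = 0.014), Lag3 (0.86, adjusted p = 0.010) and Ndrg1 (-0.59, adjusted p = 0.015). Rpl29, a ribosomal protein gene (chr9:106429454-106431568), stood at 1.54 and 2.49 FPKM in the KO label, 22.6 and 24.7 in WT and 26.2 and 28.9 in TG (3.26 ± 0.18, adjusted p = 2.5e-05), and at 1.48 and 2.54 against 29.1 and 26.4 with RA. The neighbouring Abhd14b (chr9:106447459-106452923) and Parp3 (chr9:106470322-106476949) also rose, by 1.26 ± 0.14 (adjusted p = 0.00074) and 1.38 ± 0.10 (adjusted p = 0.00011). Nt5e lies on the same chromosome (chr9:88327197-88372092) and is in the set as well. Inppl1, an inositol phosphatase, stood at 10.3 and 10.1 in the KO label against 1.96 and 1.95 in TG and 1.81 and 1.95 in WT (-1.93 ± 0.10, adjusted p = 2.2e-05). Elobl, an elongin-B-like gene, was listed at 0 in every WT and TG library and at 5.20 and 3.95 FPKM in the KO label without RA. H60b, a ligand of the NKG2D receptor, stood at 24.7 and 23.2 in the KO label, 1.13 and 0.698 in WT and 1.17 and 1.13 in TG (-3.54 ± 0.16, adjusted p = 1e-05). It remained low in TG at 10 nM, with 0.147 and 0.0649 against 23.9 and 18.2, although its change of -0.77 was called (adjusted p = 0.049), so it is not among the 39. In Rpl29, Inppl1, Elobl and H60b the libraries labelled KO stood apart while WT and TG lay together, the male and the female TG library alike. Others were graded over the 3 genotypes at both doses. Spry1, a feedback inhibitor of receptor signalling, stood at 24.2 and 21.2 in the KO label, 15.4 and 13.4 in WT and 8.4 and 6.74 in TG (-1.47 ± 0.15, adjusted p = 0.00049), and Axl, a receptor tyrosine kinase, at 20.6 and 22.95, 9.09 and 12.2, and 6.82 and 7.45 (-1.49 ± 0.15, adjusted p = 0.00049). Lag3, an inhibitory receptor, rose from 15.2 and 11.6 to 36.1 and 29.7 (1.24 ± 0.15, adjusted p = 0.0011), with WT at 15.6 and 11.8, level with the KO label. These genes were picked from the 39 after their values were seen.

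**Figure D5:**
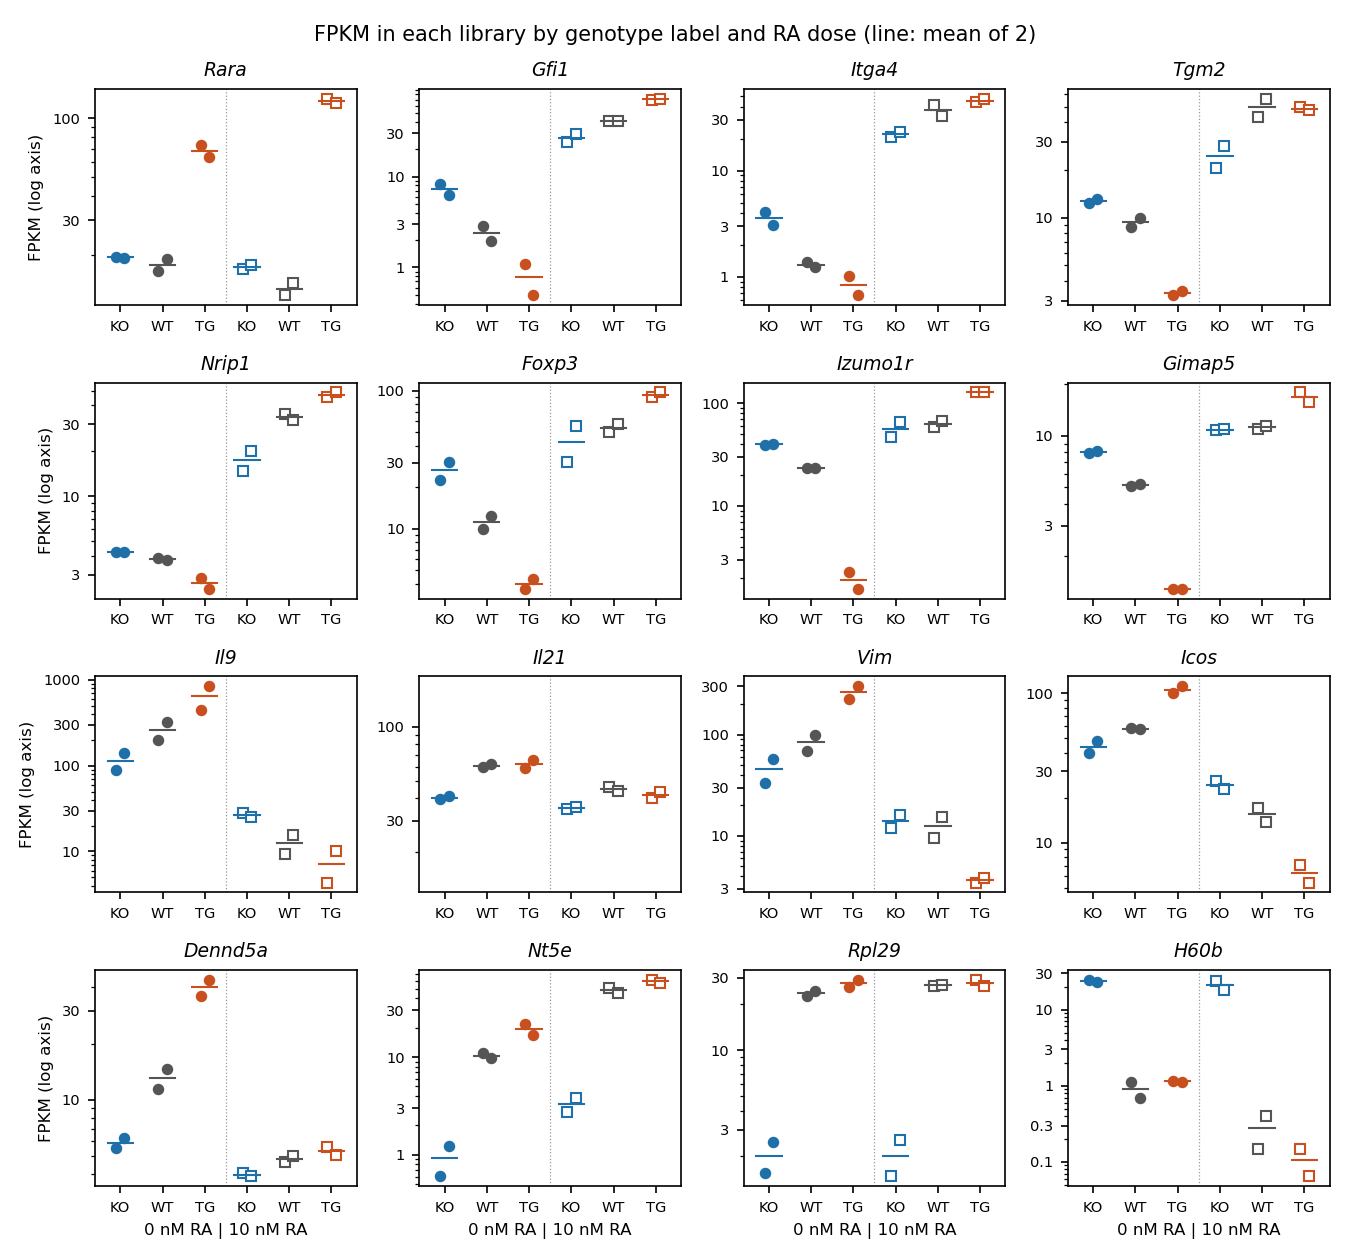
FPKM of 16 genes in each of the 12 libraries on log axes, by genotype label, with filled circles at 0 nM RA, open squares at 10 nM RA and a line at the mean of 2 libraries. Gfi1, Itga4, Tgm2, Nrip1, Foxp3, Izumo1r and Gimap5 descend from the KO label through WT to TG without RA, Il9, Vim, Icos and Dennd5a ascend, and in Rpl29 and H60b the KO label stands apart at both doses.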

How the data were processed

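RNA from 12 cultures was sequenced as stranded libraries with single reads of 100 bp, per the labels' protocols. The authors deposited FPKM per gene for 52635 genes. Builds GRCm38.p5 and mm10 and the tools DESeq2, HTSeq 0.6.1, STAR and Trimmomatic 0.32 are listed in the submitters' processing notes. Annotation and strand setting are not given in the sources used, so overlapping genes on opposite strands may share reads. GENCODE M21 (GRCm38) gave positions and exon lengths and it holds 52402 of the identifiers. FPKM times exon length moves in steps of 1 read, and these gave the depth, from 16289969 to 25534588 reads over the 12 libraries. Depth limits counting error only.

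The test was limma 3.58.1 (R 4.3.3), with lmFit, contrasts.fit and trended eBayes, on log2(FPKM + 1), a scale that understates changes of low genes. The fit held all 12 libraries in 6 group means, with 6 residual and 2.51 prior degrees of freedom. P-values are two-sided, with Benjamini-Hochberg adjustment over the 11922 genes. Whether replicates are separate animals is not in the labels. The TG libraries of a dose differ in sex, while in the WT and KO-labelled groups the spread behind the p-values may be technical. Each TG replicate number had the same sex at both doses. Whether cultures of a number share a source is not in the labels. No fit paired the doses within a genotype, as the replicate block is a single term shared by all genotypes. No set test was run. The 29 gene lists and 10 marker lists are described by their counts, to be read beside the shares over all genes tested. These were 7.21% risen and 8.81% fallen.

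The genes named are the 12 largest rises and 12 largest falls among called genes, up to 4 members, those with the smallest p, of each list described, 25 chosen genes whatever their values, and other list members as examples. A few genes picked in this way are left out of the text. The first of these leaves out predicted genes, pseudogenes and antigen receptor segments, and needs a mean of at least 2 FPKM. The members, lists and genes were chosen with earlier results of these data known. Alternatives were a pseudocount of 0.1, no filter, a filter at 5 FPKM, upper-quartile scaling, only the libraries compared, a replicate block, a sex term, voom on recovered reads (11905 genes), no X- or Y-linked genes, and each library left out in turn. For the RA effect in WT, the overlap and the lists, they were chosen after seeing the data. The code was tested on simulated data. Promoters came from the RefSeq table of GRCm38.p6. Tables were handled in Python 3.11.15 with pandas 2.3.3 and numpy 2.4.6, and figures drawn with matplotlib 3.10.9.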

Additional observations from a re-analysis of the deposited data

Results flagged for a closer look

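For 70 of the 85 named genes tested, the TG minus KO difference at 10 nM RA departed from that without RA by limma's test of the change itself. The same test called 15.5% of all genes. Many of these genes were named for a large difference without RA, so a change back towards 0 is favoured by their choice. Values are changes of the difference in mean log2(FPKM + 1), at 10 nM minus at 0 nM. The difference became lower with RA in 33 genes and higher in 37.

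Among helper-cell cytokines and their regulators the change was -5.20 for Il17f, -4.32 for Il9, -2.74 for Il22, -2.10 for Il24, -1.40 for Il10, -1.04 for Il17a and -0.38 for Il21. Il17f, Il17a and Il10 were not called without RA, though Il17a and Il10 were with the replicate block. Transcription factors with a lower difference were Crem at -1.80, Nfil3 at -1.62, Satb1 at -1.61, Runx3 at -0.97, Rxra at -0.95, Nfkbiz at -0.83, Fosl2 at -0.71 and Tgif1 at -0.48. Surface molecules followed with Icos at -3.07, Ly6c1 at -2.94, Klrd1 at -2.82, Il12rb2 at -2.12, Entpd1 at -1.30 and H60b at -0.77. The structural group held Vim at -4.22, Lmna at -2.51, Lgals1 at -1.81, Ahnak at -1.31 and Anxa6 at -0.53. Stress response genes were Trib3 at -1.14, Sdf2l1 at -0.77 and Pdia6 at -0.41. Other genes were Gcnt4 at -2.99, Dennd5a at -2.22, Nedd4 at -1.39 and Fam46a at -0.76.

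The list of RA-induced genes was put together with the RA response of the WT cultures known. In it the change was 4.03 for Crabp2, 3.59 for Gfi1, 2.87 for Stra6, 2.84 for Xcl1 and 2.64 for Tgm2. It was 2.42 for Ccr9, 2.41 for Hic1, 2.34 for Itga4 and 1.94 for Nrip1. Gimap genes gained 3.96 for Gimap3, 3.17 for Gimap9, 3.09 for Gimap4, 2.58 for Gimap5 and 1.82 for Gimap1. Genes of regulatory and helper T cells were Izumo1r at 4.99, Foxp3 at 3.62, Tbx21 at 2.64, Runx1 at 1.68 and Stat4 at 1.5. Receptors and ligands were Cd96 at 2.11, Pdcd1lg2 at 1.44, Cd274 at 1.40, Itgb2 at 1.25 and Ccr8 at 0.84. Signalling genes were Ubash3b at 1.25, Pmepa1 at 0.91, Smad3 at 0.66, Lcp2 at 0.61, Fyn at 0.45, Smad7 at 0.43 and Sh2d2a at 0.40. Antigen-processing genes were H2-Q4 at 0.87, Tap2 at 0.76 and Psmb8 at 0.72. The remaining genes were Fbxo2 at 2.80, Tbc1d4 at 2.35 and Rara itself at 1.01, whose TG libraries rose from 72.8 and 63.3 to 126 and 119 FPKM with RA.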

How the results depend on the processing

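The count of 1909 genes called was 737 (296 risen, 441 fallen) with only the libraries compared, and 777 to 1377 (risen 356 to 635, fallen 421 to 742) when 1 library was left out. Under the other alternatives it stayed between 1528, with the sex term, and 2577, with the replicate block (1207 risen, 1370 fallen). Deviations of KO and TG libraries with the same replicate number correlated at 0.06, and those of the same genotype at both doses at 0.15 to 0.33, with 2 numbers a group and no label that says what a number marks. The block ended the call of mt-Ti and made Il17a (-0.38) and Il10 (0.67) pass. The 1849 called changes between doses were 2354 with the block and 1153 to 1738 without 1 library. RA in WT, 1209 genes, gave 1689 with the block, 142 with only the libraries compared and 342 to 850 without 1 library. The 607 genes called in both, 570 of them opposite, became 72 and 71 with only the libraries compared, 382 and 361 without a filter, 925 and 858 with the block, and 239 to 495 and 231 to 477 without 1 library. Signs turned without 1 library for Il17f (-0.10 to 0.36; -0.10 without KO replicate 1 and -0.04 without TG replicate 2) and Rarg (-0.0097, without KO replicate 2, to 0.37), neither of them called. Of the 84 named genes beside Rara, 79 kept direction and side of the threshold with the sex term, 75 with only the libraries compared and 70 to 79 without 1 library. Rara kept its call throughout. With 2 libraries a group, leaving one out makes the lone library borrow the spread of the other groups.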

Other observations

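The apoptosis list had 5 of 17 members fallen, among them Bak1, Pmaip1, Fas and Mcl1, and 2 risen (Bik and Bmf), with 2 falls called without KO replicate 1 or TG replicate 2. For this and the next lists, 8.81% of all genes tested fell and 7.21% rose. Among NF-κB subunits and inhibitors 5 of 18 fell (Ikbke, Rel, Bcl3, Tnip1 and Nfkbie) and 3 rose (Nfkbiz, Nfkb2 and Ikbkb). Here 0 falls were called without KO replicate 1 or TG replicate 2, 1 without KO replicate 2 and 2 without TG replicate 1. Of 37 cytokine receptors, STATs and SOCS genes 9 fell and 6 rose, or 3 rose without KO replicate 1. The 6 rises were chains of receptors for IL-7, IL-12, IL-23, IL-1 and IL-2 (Il7r, Il12rb2, Il23r, Il1r1 and Il2ra), with Il6st. The 9 falls held both interferon-γ receptor chains (Ifngr1 and Ifngr2) and both TGF-β receptor chains (Tgfbr1 and Tgfbr2). Other receptor genes also fell, interleukin receptors included (Il21r, Il10ra, Ifnar2 and Tnfrsf1b), as did Stat4.

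Calls were spread over the genome, with 11.5% of tested genes called on chromosome 8 and 19.1% on chromosome 15, and 66 of 387 X-linked genes (17.1%). Of the 39 genes with the same difference at both doses, 6 lay on chromosome 7, 6 on chromosome 9 and 5 on chromosome 6. Chromosome 11, which holds Rara, had 3 of them, Elobl included. Whether the 39 are grouped by position was not tested.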
